A study of Sus scrofa with 30 samples.

Results

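The miR-29 family of plasma miRNAs was followed in 3 male Göttingen minipigs before and after a lethal total body irradiation (TBI). Its members were the rows of the deposited table whose number directly after "ssc-miR-" is 29, where "ssc" stands for Sus scrofa, the pig. This rule gave 3 of the 411 ssc-miRNAs listed, which were ssc-miR-29a, ssc-miR-29b and ssc-miR-29c. The members had first been listed as ssc-miR-29b and ssc-miR-29c, and ssc-miR-29a was added when the table was read because it meets the same rule. It also serves here as the member with which ssc-miR-29b and ssc-miR-29c were compared within a library.

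A miRNA is a short RNA that binds complementary sites in mRNAs and lowers their translation or stability, and the sites it binds are set mainly by its seed, a short stretch near its 5′ end. The miR-29 family is best known for targeting mRNAs of the extracellular matrix, among them collagens, fibrillin and elastin. Lower miR-29 in a tissue has been linked with fibrosis of heart, liver, lung and kidney, and fibrosis is also a late injury of irradiated organs. A plasma level does not tell which tissue released the RNA, and in bulk plasma a smaller number of releasing cells cannot be told apart from less RNA released per cell. The seed is shown because it is what makes the 3 members a family and gives them shared predicted targets. The study's target tables give it for miR-29b-3p and for every miRNA with the same seed, and all 7 printed bases are the seed, written 5′ to 3′ in capitals.

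miR-29b-3p seed: AGCACCA

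The pig genome holds 4 miR-29 genes in the RefSeq gene table of assembly Sscrofa11.1, and all 3 members matched a gene there by name. The genes form 2 pairs of direct neighbours. MIR29B-1 lies next to MIR29A, and MIR29B-2 lies next to MIR29C. ssc-miR-29b can therefore come from either pair, and its 1 row in the table cannot be split between them, whereas ssc-miR-29a and ssc-miR-29c each name 1 gene.

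Each of the 3 minipigs, about 4 months old, was bled at 10 time points, and all received the same 2.2 Gy dose of 60Co gamma rays to the whole body. No sham-irradiated animals were compared, so each group is the same animals at another time. After TBI the animals also received dextrose injections under the skin, as controls of a countermeasure study. Oral antibiotics were given when neutrophil counts were low. The part of these treatments in the miR-29 values was not tested. The baseline, called pre-TBI, joins C7 and C1, drawn 7 days and 1 day ahead of TBI. In the study's grouping the first week after TBI is Early, with 0d (6 h after TBI), 1d, 3d and 7d. Mid joins 10d with 14d, Late is 17d alone, and Late Regression (LR) is 20d alone. The study set these phases from the miRNA profiles of these same samples. Small RNA was sequenced in 1 library per minipig and time point, and the deposited values are raw counts per ssc-miRNA. In 6 of the 30 libraries, all of minipig 3 from 3d on, the whole table summed to 0 to 17 counts and every miR-29 member was at 0, so they were left out. The other 24 libraries held 24341 to 550316 counts. They comprise 6 pre-TBI, 10 Early, 4 Mid, 2 Late and 2 LR libraries. The shallowest was a baseline library, minipig 1 at C7 with 24341 counts, and the Mid and Late libraries held 35762 to 103083 and 29159 to 63441 counts. Minipig 3 contributes to the pre-TBI and Early groups only, through C7, C1, 0d and 1d.

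All 3 members were detected in each of the 24 libraries, at low levels. ssc-miR-29a held 2199 counts over all libraries, from 3 to 316 in a library with a median of 71. ssc-miR-29c held 1208 counts, from 3 to 297 with a median of 27. ssc-miR-29b held 1014 counts, from 2 to 298 with a median of 18.5. Ranked by mean CPM (counts scaled to a common library total after TMM normalisation), they stood 284th, 333rd and 362nd of the 411 ssc-miRNAs. Where a library holds this few counts, counting error alone is wide. The 2 counts of ssc-miR-29b in minipig 1 at C7 have a 95% Poisson interval of 0.242 to 7.22 counts, and the 3 counts of ssc-miR-29a in minipig 1 at 10d one of 0.619 to 8.77.

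Before TBI the family already differed widely between libraries. ssc-miR-29b stood at 98.3 and 66.8 CPM in minipig 1 at C7 and C1, at 86.3 and 408 CPM in minipig 2, and at 523 and 282 CPM in minipig 3. ssc-miR-29c followed nearly the same course, with 147 and 58.4 CPM in minipig 1, 116 and 428.98 CPM in minipig 2, and 521 and 298 CPM in minipig 3. Minipig 1 was low on both days, minipig 3 was high on both days, and minipig 2 was low at C7 and high at C1. In ssc-miR-29a the same libraries held 246 and 117 CPM, 276 and 502 CPM, and 495 and 424 CPM, a narrower range.

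The standard deviation of log2 CPM over the 6 pre-TBI libraries was 0.78 for ssc-miR-29a, 1.22 for ssc-miR-29b and 1.1605 for ssc-miR-29c, against a median of 0.55 over all 411 ssc-miRNAs. From C7 to C1, ssc-miR-29b differed by -0.51, 2.15 and -0.87 log2 units in minipigs 1, 2 and 3. The corresponding differences of ssc-miR-29c were -1.23, 1.81 and -0.79, so the animals did not share a direction. The pooled differences of C1 from C7 were -0.01 for ssc-miR-29a, -0.05 for ssc-miR-29b and -0.09 for ssc-miR-29c (SE 0.49, 0.67 and 0.60), each with an edgeR adjusted p of 0.997. A call here means a Benjamini-Hochberg adjusted p under 0.05 over all 411 ssc-miRNAs in edgeR's quasi-likelihood test. In this comparison 0% of all ssc-miRNAs were called, and 3 of 411 had an unadjusted p under 0.05.

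**Figure D1:**
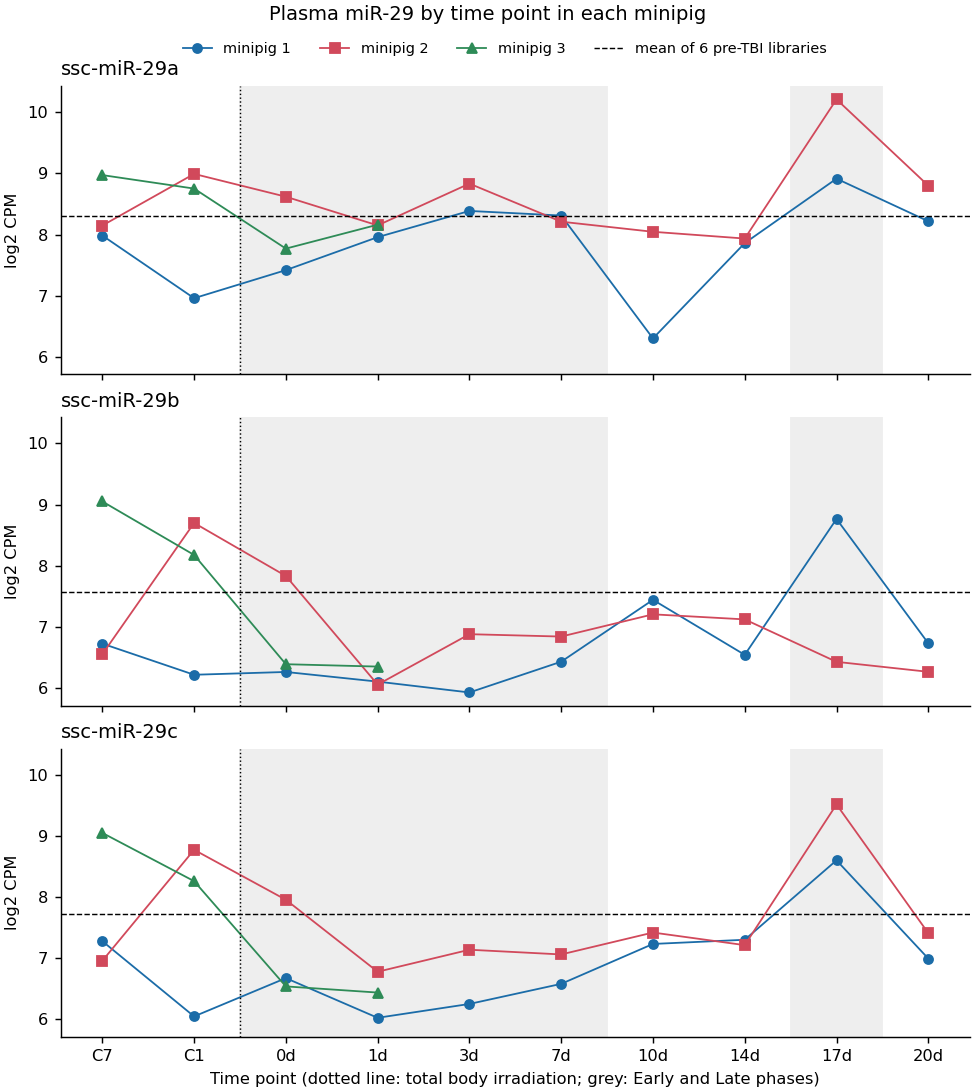
Level of each miR-29 member as log2 CPM (y axis) at each time point (x axis, not to scale in days) in minipigs 1, 2 and 3, 1 point per library. The dashed line is the mean of the 6 pre-TBI libraries and the dotted line marks TBI. Minipig 3 has no point after 1d, where its libraries were left out. ssc-miR-29b and ssc-miR-29c lie mostly under the dashed line from 1d to 14d, and ssc-miR-29a and ssc-miR-29c peak at 17d in both minipigs measured there.

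The Early comparison asked how the family stood in the first week after TBI. Over the 10 Early libraries the level of ssc-miR-29b ran from 53.3 to 220 CPM with a median of 75.1, against 66.8 to 523 CPM with a median of 190 over the 6 pre-TBI libraries. ssc-miR-29c ran from 57.4 to 240 CPM with a median of 91.1, against 58.4 to 521 CPM with a median of 222.9. Both stood lower on average after TBI, in groups that overlapped. Of the 10 Early libraries, 9 lay under the pre-TBI median for each of these members, while 3 lay under every pre-TBI library for ssc-miR-29b and 1 did for ssc-miR-29c. Such counts were not made for the rest of the ssc-miRNAs, so they have no share of the table beside them. ssc-miR-29a ran from 164 to 449 CPM with a median of 284 at Early, which lay within its pre-TBI range of 117 to 502 CPM, and its pre-TBI median was 350 CPM.

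The fitted log2 fold change from pre-TBI to Early was -1.51 (SE 0.39) for ssc-miR-29b and -1.36 (SE 0.35) for ssc-miR-29c, with unadjusted p of 0.000744 and 0.000665. Neither passed the threshold over the whole table, since edgeR's adjusted p was 0.0549 for each of them, and each passed it in 9 of the 18 alternative fits. The value for ssc-miR-29a was -0.27 (SE 0.28, edgeR adjusted p = 0.573). The median over all 411 ssc-miRNAs was 0.02, and 0% of them were called at Early. At an unadjusted p under 0.05, 13.6% of the table was lower at Early, and 2 of the 3 miR-29 members were.

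The animals contributed unequally to this difference. In minipig 3 the mean log2 CPM of ssc-miR-29b was lower by 2.24 at Early, from 282 and 523 CPM before TBI to 76.2 CPM at 0d and 74.0 CPM at 1d. Minipig 2 gave 220, 58.9, 110 and 107 CPM from 0d to 7d, a mean difference of -0.72, and only its 1d library lay under both of its pre-TBI libraries. Minipig 1 gave 69.2, 61.2, 53.3 and 78.7 CPM at the same times, a mean difference of -0.29. Against each animal's own pre-TBI mean, the direction was thus the same in the 3 minipigs. The size was largest in the animal that had the highest level before TBI. In minipig 1 the difference came mostly from C7, at 6.73 log2 CPM from 2 counts. Its C1 library stood at 6.22 log2 CPM, close to the Early mean of 6.18.

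ssc-miR-29c showed the same order, with mean differences of -0.28, -0.63 and -2.17 in minipigs 1, 2 and 3. In minipig 1 its Early mean of 6.38 log2 CPM lay below C7, at 7.28 from 3 counts, but above C1, at 6.05 from 7 counts. The direction in that animal therefore depended on C7. It stood at 85.2 and 79.0 CPM in minipig 3 at 0d and 1d, at 240, 102, 133.1 and 125.7 CPM in minipig 2 from 0d to 7d, and at 94.3, 57.4, 68.5 and 87.9 CPM in minipig 1. ssc-miR-29a did not keep one direction, with 0.55, -0.12 and -0.90 in the 3 minipigs. Without minipig 3, the Early log2 fold change was -0.94 for ssc-miR-29b and -0.82 for ssc-miR-29c (edgeR adjusted p = 0.539 and 0.543), and that of ssc-miR-29a turned to 0.058. When 1 library at a time was left out, ssc-miR-29b ranged from -1.87 without minipig 1 at C1 to -1.13 without minipig 3 at C7, and ssc-miR-29c from -1.72 to -1.01 without the same libraries. Their edgeR adjusted p was under 0.05 in 12 of those 24 fits and 0.303 without minipig 3 at C7. How many of all ssc-miRNAs passed in those 24 fits was not counted.

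Among single time points, 1d was the lowest for both. From 0d to 7d the log2 fold changes of ssc-miR-29b were, in order of day, -1.07, -2.01, -1.68 and -1.50, and those of ssc-miR-29c were -0.96, -1.79, -1.46 and -1.37. The standard errors of these 8 values lay between 0.52 and 0.73, and differences between these days were not tested. At 3d and 7d only minipigs 1 and 2 were measured, against a baseline that contains minipig 3. Over the 6 alternative fits by time point, ssc-miR-29b lay between -2.33 and -1.08 at 3d and between -1.83 and -0.97 at 7d. At 7d both members lay between C7 and C1 of the same animal in minipigs 1 and 2. At 1d, where all 3 minipigs were measured, edgeR's adjusted p was 0.185 for each of them. No member passed edgeR's threshold at any of the 4 days, though with DESeq2 both passed at 1d (-1.98 and -1.75, DESeq2 adjusted p = 0.0255 and 0.0282). By edgeR 0% of all ssc-miRNAs were called at 0d, 1d and 7d and 1.22% at 3d. The share called by DESeq2 at single days was not counted, so its calls at 1d have no share of the table beside them.

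**Figure D2:**
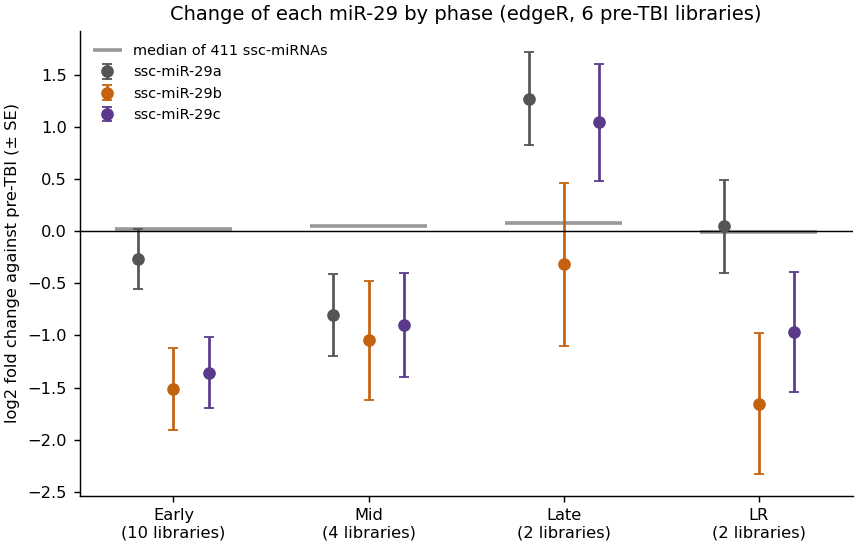
Log2 fold change of each member against the 6 pre-TBI libraries (y axis) at each phase (x axis, with the number of libraries), with edgeR's estimate as a point and its standard error as a bar. Grey dashes mark the median of all 411 ssc-miRNAs, which stays within 0.08 of 0. ssc-miR-29b and ssc-miR-29c lie together at Early, at -1.51 and -1.36, and at Late ssc-miR-29a and ssc-miR-29c are above 0 and ssc-miR-29b is at -0.32.

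At Mid all 3 members stood under their pre-TBI medians in every one of the 4 libraries, without a call. Those medians include minipig 3, which has no Mid library. The share of all ssc-miRNAs that stood so was not counted. ssc-miR-29b held 166 and 140 CPM at 10d and 85.6 and 132 CPM at 14d in minipigs 1 and 2, from 6 to 15 counts a library. ssc-miR-29c was the most even, with 143 and 163 CPM at 10d and 150 and 140.6 CPM at 14d. ssc-miR-29a held 257 CPM in minipig 2 at 10d and 225 and 237 CPM in minipigs 1 and 2 at 14d, but 71.3 CPM in minipig 1 at 10d, which rests on 3 counts. The log2 fold changes were -0.81 (SE 0.39) for ssc-miR-29a, -1.05 (SE 0.57) for ssc-miR-29b and -0.90 (SE 0.49) for ssc-miR-29c, with edgeR adjusted p of 0.808, 0.818 and 0.818.

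The Mid baseline contains minipig 3, whose Mid libraries were left out, and without that animal the 3 values were -0.51, -0.48 and -0.39. Measured within animals, ssc-miR-29b and ssc-miR-29c were above their own pre-TBI mean in minipig 1, by 0.52 and 0.60, and below it in minipig 2, by -0.46 and -0.55. ssc-miR-29a was below it in both animals, by -0.39 and -0.58, with 1 of 2 Mid libraries in minipig 1 and 2 of 2 in minipig 2 under both pre-TBI libraries of the animal. At Mid 0% of all ssc-miRNAs were called and 3.16% were lower at an unadjusted p under 0.05, none of them a miR-29 member. The call rate was 0% at 10d and 0.243% at 14d, again without a member. Markers of red blood cells stood lower in the same libraries. All 4 red cell rows (ssc-miR-16, ssc-miR-144, ssc-miR-451 and ssc-miR-486) had negative log2 fold changes at Mid, from -2.42 to -0.80 with a median of -1.87, and 2 of them had an unadjusted p under 0.05. Their summed level ran from 11930 to 25177 CPM at Mid and from 10841 to 99976 CPM before TBI, and their part in the miR-29 values was not tested.

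At Late, 17 days after TBI, ssc-miR-29a and ssc-miR-29c stood high in both animals measured and ssc-miR-29b in 1 of them. ssc-miR-29a stood at 475 CPM in minipig 1 and 1178 CPM in minipig 2, from 10 and 75 counts. ssc-miR-29c stood at 380 and 722 CPM in the same animals, from 8 and 46 counts. Both were above each animal's own pre-TBI libraries, by a mean log2 difference of 1.44 and 1.64 for ssc-miR-29a and of 1.94 and 1.65 for ssc-miR-29c. Only the minipig 2 library lay above every pre-TBI library of all animals. For the rest of the ssc-miRNAs this was not counted. ssc-miR-29b stood at 427 CPM in minipig 1, from 9 counts, and at 78.5 CPM in minipig 2, from 5 counts, so the animals lay on opposite sides of their own pre-TBI mean, by 2.29 and -1.20.

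The log2 fold change from pre-TBI to Late was 1.27 (SE 0.44, edgeR adjusted p = 0.105) for ssc-miR-29a, 1.04 (SE 0.56, edgeR adjusted p = 0.262) for ssc-miR-29c and -0.32 (SE 0.78, edgeR adjusted p = 0.849) for ssc-miR-29b. No member was called, against 4.38% of all ssc-miRNAs at Late and 4.87% in the fit by single time points at 17d. ssc-miR-29a was higher at an unadjusted p under 0.05, as were 15.6% of all ssc-miRNAs. Without the Late library of minipig 2 the value of ssc-miR-29a was 0.42 and that of ssc-miR-29c 0.45, and that of ssc-miR-29b turned to 0.69. Without all libraries of minipig 2 they were 0.18, 0.09 and 0.30.

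Set against the phase before it, a comparison added after seeing the data, Late held the one call in the family. ssc-miR-29a rose from Mid to Late by 2.08 on the log2 scale (SE 0.49, edgeR adjusted p = 0.0116), with 4.62% of all ssc-miRNAs called in that comparison. The 2 Late libraries held 475 and 1178 CPM, and the 4 Mid libraries 71.3 to 257 CPM. The call was lost without minipig 2 (1.23, edgeR adjusted p = 0.419) and with library size as the only scaling (1.85, edgeR adjusted p = 0.160), and without the 3-count library of minipig 1 at 10d the value was 1.78 (edgeR adjusted p = 0.0599). ssc-miR-29c had a value of 1.95 (SE 0.63, edgeR adjusted p = 0.0882), with 380 and 722 CPM at Late and 140.6 to 163 CPM at Mid. How many of all ssc-miRNAs had Late libraries outside their Mid range was not counted. With every library thinned to the 24341 counts of the smallest one, ssc-miR-29c gave 0.71 (edgeR adjusted p = 0.717) and ssc-miR-29a gave 2.23 (edgeR adjusted p = 0.112). ssc-miR-29b gave 0.73 (SE 0.86, edgeR adjusted p = 0.654). From Early to Mid the values were -0.54, 0.47 and 0.45 for ssc-miR-29a, ssc-miR-29b and ssc-miR-29c, none of them called, as was 0% of the table.

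Red cell rows were low in the Late libraries too, with all 4 log2 fold changes against pre-TBI between -2.74 and -1.61 and a summed level of 8786 and 11779 CPM. The rows of leukocyte and platelet miRNAs had a median of -0.48 over 8 rows, with 1 higher and 1 lower at an unadjusted p under 0.05 and a summed level of 8786 and 10020 CPM, against 14348 to 26631 CPM before TBI. The part of either list in the Late values of miR-29 was not tested.

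At LR, 20 days after TBI, all 3 members lay within the range of the pre-TBI libraries. ssc-miR-29a stood at 290 and 438 CPM in minipigs 1 and 2, from 97 and 316 counts, and its log2 fold change against pre-TBI was 0.05 (SE 0.44, edgeR adjusted p = 0.961). ssc-miR-29c stood at 120 and 162 CPM, with a log2 fold change of -0.97 (SE 0.57, edgeR adjusted p = 0.593). ssc-miR-29b stood at 98.7 and 69.3 CPM, from 33 and 50 counts, and had the lowest value of the 3, at -1.65 (SE 0.68, unadjusted p = 0.0231, edgeR adjusted p = 0.593). These 2 libraries were among the deepest, so counting error was smaller here than at Late. Within animals the difference of ssc-miR-29b was 0.26 in minipig 1 and -1.36 in minipig 2, so the direction was not shared, and without minipig 3 the fold change was -1.15. That of ssc-miR-29c was 0.33 in minipig 1 and -0.45 in minipig 2, again in opposite directions. Over the 18 alternatives the log2 fold change of ssc-miR-29c lay between -1.44 and -0.48. All 4 red cell rows had negative values at LR too, from -1.04 to -0.76 with a median of -0.89 and none at an unadjusted p under 0.05, and their summed level was 11560 and 22707 CPM. Their part in the LR values of miR-29 was not tested. At LR 0% of all ssc-miRNAs were called and 1.95% were lower at an unadjusted p under 0.05. In the fit by time points 0.73% were called at 20d, and none was a member. From Late to LR the values were -1.23, -1.34 and -2.01 for ssc-miR-29a, ssc-miR-29b and ssc-miR-29c (SE 0.56, 0.92 and 0.71), with edgeR adjusted p of 0.139, 0.298 and 0.0961, and with DESeq2 the value of ssc-miR-29c passed the threshold (-1.95, DESeq2 adjusted p = 0.0443). By edgeR 0.73% of all ssc-miRNAs were called there, and the share called by DESeq2 was not counted.

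Since 2 members measured in the same library share its depth and scaling, ratios of counts compare them directly. ssc-miR-29b and ssc-miR-29c had nearly equal counts in most libraries. ssc-miR-29b had no more counts than ssc-miR-29c in 19 of 24 libraries, and the exact (Clopper-Pearson) 95% interval of its share of the counts of both held 50% in 21 of 24. Before TBI the 2 rows summed to 581 and 601 counts, at Early to 300 and 353, at Mid to 36 and 43. The paired values 298 and 297 in minipig 3 at C7, 135 and 143 at C1, and 118 and 124 in minipig 2 at C1 show how close they lay at high counts.

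The 3 exceptions were all libraries of minipig 2, and in each ssc-miR-29b was the lower. At 1d it had 26 counts against 45. At 17d it had 5 counts against 46, a share of 9.80% (95% interval 3.26% to 21.4%). At 20d it had 50 against 117, a share of 29.9% (23.1% to 37.5%). Minipig 1 had 9 and 8 counts at 17d and 33 and 40 at 20d, so the split at Late and LR was seen in 1 of the 2 animals. The intervals cover counting error only. Members of this family are close in sequence, and the sources used here do not state how a read that matches more than 1 of them was counted, so shared reads cannot be told apart from equal levels in these near-equal counts.

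**Figure D3:**
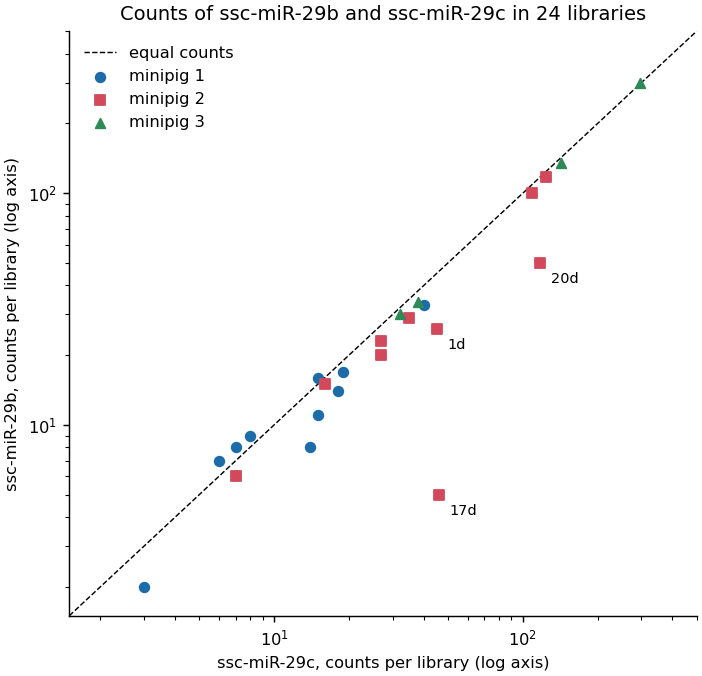
Counts of ssc-miR-29b (y axis) against ssc-miR-29c (x axis) in the 24 libraries, both on log axes, with 1 point per library by minipig and a dashed line at equal counts. The points follow the line except for the labelled libraries of minipig 2, at 1d (26 against 45), 17d (5 against 46) and 20d (50 against 117).

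The mean log2 ratio of ssc-miR-29b to ssc-miR-29c, with 0.5 added to each count, was -0.15 in pre-TBI libraries and -0.25, -0.22, -1.46 and -0.75 in the 4 successive phases. Differences from pre-TBI were -0.10, -0.07, -1.31 and -0.60, with two-sided exact permutation p within minipigs of 0.416, 0.694, 0.222 and 0.222. With 2 libraries at Late and at LR the smallest p such a test can give is 0.111, so it could not reach 0.05 there.

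Against ssc-miR-29a, in contrast, both were relatively lower at Early. The log2 ratio of ssc-miR-29b to ssc-miR-29a had a mean of -0.73 before TBI and -1.75 at Early, a difference of -1.02 (two-sided exact permutation p = 0.00741). That of ssc-miR-29c to ssc-miR-29a had a mean of -0.58 before TBI and -1.50 at Early, a difference of -0.91 (two-sided exact permutation p = 0.00593). Adjusted over the 12 ratio comparisons by Benjamini-Hochberg, both exact p were 0.0444. These 2 ratios were chosen after the values had been seen, and they share their Early and pre-TBI libraries and the counts of ssc-miR-29a. In minipig 3, ssc-miR-29b had 298 counts against 282 of ssc-miR-29a at C7 and 135 against 203 at C1, and after TBI 34 against 94 at 0d and 30 against 113 at 1d. In minipig 2 it had 20 against 64 and 118 against 145 before TBI, and then 100 against 175, 26 against 122, 29 against 118 and 23 against 62 from 0d to 7d. Minipig 1 had 2 against 5 and 8 against 14 before TBI, and then 11 against 26, 16 against 63, 14 against 86 and 17 against 67. Thus ssc-miR-29a outnumbered ssc-miR-29b in every Early library. This order was not particular to Early. ssc-miR-29b had no more counts than ssc-miR-29a in 5 of the 6 pre-TBI libraries and in 22 of all 24.

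The groups overlapped in both ratios. That of ssc-miR-29b ran from -2.58 to -0.80 at Early and from -1.65 to 0.08 before TBI, and that of ssc-miR-29c from -2.23 to -0.68 and from -1.23 to 0.07. Without minipig 3 the differences were -0.80 and -0.72 (exact permutation p = 0.0711 and 0.0667), and with C7 alone as the baseline they were -0.84 and -0.89 (exact permutation p = 0.107 and 0.0533). At Mid, Late and LR the adjusted exact p of these ratios lay between 0.333 and 0.889.

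**Figure D4:**
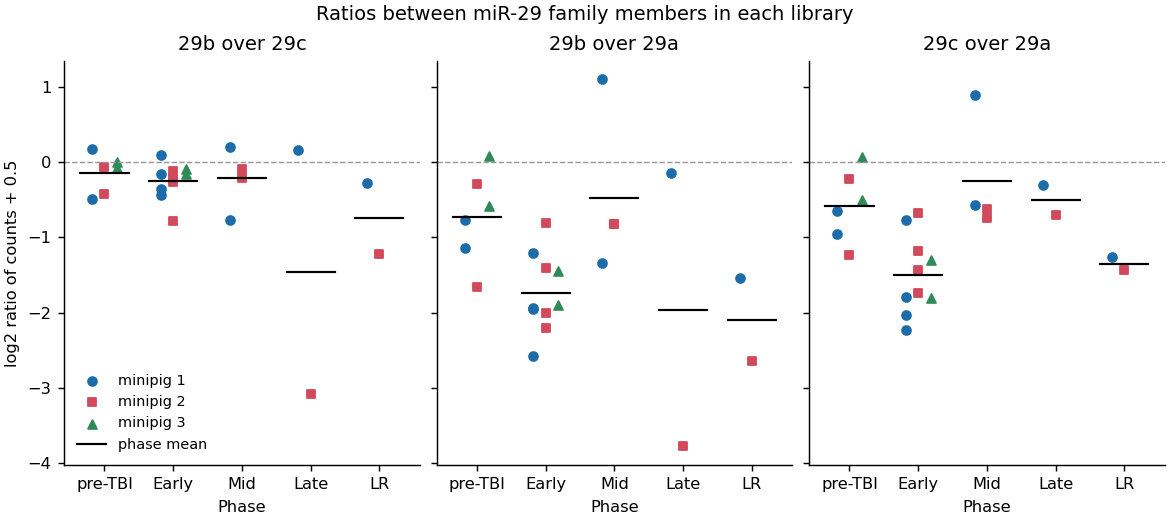
Log2 ratio of the counts of 2 family members (y axis, 0.5 added to each count) in each library by phase (x axis), coloured by minipig, with a bar at the phase mean and a dashed line at equal counts. ssc-miR-29b over ssc-miR-29c lies between -0.78 (minipig 2 at 1d) and 0.21 except in minipig 2 at Late and LR, at -3.08 and -1.22. Both ratios to ssc-miR-29a are lower at Early (means -1.75 and -1.50) than before TBI (-0.73 and -0.58).

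The rows most like each member over the 24 libraries, by Pearson's r of log2 CPM among 408 ssc-miRNAs with a mean of at least 10 counts, differed between members. For ssc-miR-29a they were ssc-miR-101 (r = 0.813), ssc-let-7f (0.784), ssc-miR-182 (0.721), ssc-let-7g (0.719) and ssc-miR-499-3p (0.717). For ssc-miR-29c they were ssc-miR-101 (0.823), ssc-miR-30b-5p (0.810), ssc-miR-208b (0.783), ssc-miR-542-5p (0.777) and ssc-miR-545-5p (0.750). For ssc-miR-29b they were ssc-miR-221-5p (0.888), ssc-miR-9827-5p (0.861), ssc-miR-9838-5p (0.859), ssc-miR-9799-3p (0.844) and ssc-miR-9792-5p (0.842). ssc-miR-29c thus shared its closest row with ssc-miR-29a and no listed row with ssc-miR-29b. Within the family r was 0.744 between ssc-miR-29b and ssc-miR-29c, 0.686 between ssc-miR-29a and ssc-miR-29c and 0.297 between ssc-miR-29a and ssc-miR-29b. These r values are descriptions over libraries that share animals and differ in depth.

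Other miRNAs linked with fibrosis were counted for comparison, as 27 rows. These were ssc-miR-21, ssc-miR-26a, ssc-miR-101, ssc-miR-208b, ssc-miR-214 and ssc-miR-429, with rows of miR-30, miR-34, miR-133, miR-155 and miR-199. The miR-30 family gave more of them than any other family. Median log2 fold changes of the 27 rows in the 4 successive phases were 0.05, -0.14, 0.62 and 0.03, beside 0.02, 0.05, 0.08 and -0.01 over all 411 ssc-miRNAs. The medians of the 3 miR-29 rows were -1.36, -0.90, 1.04 and -0.97. At Early none of the 27 was called, while 5 were lower and 1 was higher at an unadjusted p under 0.05, beside 56 lower (13.6%) and 21 higher of all 411. The lower ones included the heart-muscle miRNA ssc-miR-208b (-1.99, edgeR adjusted p = 0.0766), ssc-miR-30b-5p (-1.15, edgeR adjusted p = 0.0911) and ssc-miR-30c-5p (-1.12, edgeR adjusted p = 0.0911). The others were ssc-miR-30e-3p (-0.64, edgeR adjusted p = 0.190) and ssc-miR-30a-3p (-0.52, edgeR adjusted p = 0.244), so only ssc-miR-208b lay outside the miR-30 family. At Late 2 of the 27 rose, ssc-miR-34a, a target of the DNA damage regulator p53, by 1.68 and ssc-miR-101 by 1.65 (edgeR adjusted p = 0.0482 for each of them), and 9 were higher at an unadjusted p under 0.05. Of these 9, ssc-miR-30a-5p, ssc-miR-30b-5p, ssc-miR-30c-3p, ssc-miR-30d and ssc-miR-30e-5p belong to the miR-30 family. Over all 411 ssc-miRNAs 16 were called higher at Late and 64 were higher at an unadjusted p under 0.05, the 15.6% given above. ssc-miR-21, often raised in fibrotic tissue, had values of 0.50, -0.73, 0.19 and 0.22 over the 4 phases (edgeR adjusted p from 0.362 to 0.862). The red cell rows had a median of 0.05 at Early, with none of the 4 at an unadjusted p under 0.05, and the 8 leukocyte and platelet rows one of 0.03, with 1 higher and 1 lower.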

How the data were processed

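Plasma small RNA of 3 minipigs was sequenced with 1 library per animal at 10 time points. According to the study's methods, the authors trimmed TruSeq small RNA reads with Cutadapt and mapped them with Bowtie (2.2.3.0 in the submitters' processing notes), first to the ssc5 pig genome and next to miRBase. Known miRNAs were counted with miRDeep2. The table deposited by the authors holds raw counts, not normalized, of 411 ssc-miRNAs in 30 libraries.

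Libraries with under 1000 counts were left out (6 of 30). The other 24 were fitted with edgeR 4.0.16 (R 4.3.3), with TMM, a CPM above 0.5 in at least 3 libraries (passed by all 411 rows), 5 phases in 1 fit and no animal term. The quasi-likelihood test gave p, adjusted by Benjamini-Hochberg over all rows. To obtain the standard error, the size of the fold change (log2) was divided by √F. Time points used a fit with 9 groups, and C1 against C7 one with 10. Log2 CPM had a prior count of 2. Ratios were compared by exact permutation of time labels within minipigs (scipy 1.17.1). Scripts were tested on simulated data.

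Libraries of the same animal form pairs by design. After subtracting phase means, they correlated at 0.169 on average (78 pairs), and libraries of different minipigs at -0.102 (130 pairs). Intervals cover counting error alone and treat reads as independent, although PCR duplicates remain in the counts. The edgeR p rests on the spread between libraries, treated as independent although they come from 3 animals.

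All members were named, with the 5 rows most like each. The members, lists and tests were chosen with earlier results of these data known. The comparisons of ssc-miR-29a, its ratios, each phase against the previous one and the fits without single libraries were added after seeing the data. Alternatives were RLE and no scaling factors, DESeq2 1.42.0, the likelihood ratio test, other filters, baselines and libraries, thinned counts and an animal block.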

Additional observations from a re-analysis of the deposited data

Results flagged for a closer look

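In groups of 4 to 10 libraries, the gap between an extreme library and its nearest neighbour was compared with the range of the group for the level of each member and for each ratio. Chance flags about 1 in 20 such groups, and 18 were tested. The level of ssc-miR-29a at Mid was flagged for minipig 1 at 10d, at 6.30 log2 CPM from 3 counts, with 0.894 of the range lying between it and the next library. The ratio of ssc-miR-29c to ssc-miR-29a was flagged in the same library, at 0.89 on the log2 scale with a gap of 0.897 of the range, and it rests on the same 3 counts. The level of ssc-miR-29b at Early was flagged for minipig 2 at 0d, at 7.83 log2 CPM from 100 counts. That library follows C1 of the same animal, at 8.70 log2 CPM.

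The change of ssc-miR-29a from pre-TBI differed between Mid and Late by 2.08 log2 units (edgeR adjusted p = 0.0116), higher at Late in both minipigs. This comparison and all its settings were added after seeing the data, and over those settings the value lay between 1.23 and 2.28. It was 1.85 with library size only (edgeR adjusted p = 0.160) and 1.998 with the animal block (edgeR adjusted p = 0.00623).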

How the results depend on the processing

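Against pre-TBI, no miR-29 member passed the threshold at Mid, Late or LR under any of the 18 alternatives, nor at Late in the 24 fits without a single library. At Early, ssc-miR-29b and ssc-miR-29c kept negative values in the same alternatives and fits, and they had an edgeR or DESeq2 adjusted p under 0.05 in 9 of the 18 each. Their values there were -1.55 and -1.39 with RLE size factors, -1.73 and -1.56 with library size only, -1.53 and -1.38 with DESeq2, -1.49 and -1.34 with the likelihood ratio test, -1.52 and -1.36 with only the 2 groups compared, -1.67 and -1.50 without the most abundant ssc-miRNA, -1.53 and -1.37 with every library of at least 1 count, and -1.58 and -1.42 as the median over TMM references. Under the same 8 settings 12, 13, 33, 29, 38, 15, 29 and 15 of all ssc-miRNAs were called at Early. With the minipig as a replicate block, a paired fit, the values were -1.35 and -1.20 (edgeR adjusted p = 0.122 for each of them), so that the block changed no call of a member there or elsewhere. It moved the number of ssc-miRNAs at an unadjusted p under 0.05 at LR from 23 to 49. Without a minipig or a library, ssc-miR-29b at Early ranged from -2.08 to -0.94 and ssc-miR-29c from -1.94 to -0.82. The number called at Early ranged from 0 to 8 without a minipig and was not counted without single libraries.

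The number called at Late, 18, became 10 with library size only, 0 with only the 2 groups compared (edgeR), 0 with C7 alone as the baseline (edgeR), 6 with thinned counts, 6 with thinned counts and the block, and 11 with every library of at least 1 count, and it ranged from 9 to 77 without a minipig. At LR it ranged from 0 to 6. Unadjusted counts over the 18 alternatives lay between 38 and 132 at Late and between 35 and 112 at Early.

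Values that changed sign were close to 0 or rested on 1 animal, and the cause was not tested. ssc-miR-29a at LR was -0.044 with C7 alone, -0.087 without the most abundant ssc-miRNA, -0.30 thinned and -0.46 thinned with the block. ssc-miR-29a was -0.0052 at 3d with library size only and 0.034 at 7d with the block, and ssc-miR-29b from C7 to C1 was 0.075 with the block. With C7 alone the ratio of ssc-miR-29b to ssc-miR-29c was 0.052 at Early and 0.086 at Mid. Without a minipig or a library the ranges were -0.56 to 0.058 for ssc-miR-29a at Early, -0.40 to 0.34 at LR, -0.0038 to 0.46 at 3d, -0.69 to 0.021 at 7d, -0.40 to 0.34 at 20d and -0.62 to 0.24 from C7 to C1. For ssc-miR-29b they were -2.14 to 0.69 at Late, -2.14 to 0.31 at 17d, -0.76 to 1.53 from Mid to Late and -1.13 to 1.45 from C7 to C1, and for ssc-miR-29c -1.14 to 1.00 from C7 to C1. The ratio of ssc-miR-29b to ssc-miR-29c at Late ranged from -2.94 to 0.26, that of ssc-miR-29b to ssc-miR-29a from -3.16 to 0.46 at Late and from -0.21 to 0.49 at Mid, and that of ssc-miR-29c to ssc-miR-29a from -0.23 to 0.26 at Late and from -0.21 to 0.67 at Mid. Low counts limit these values most at Mid and Late, where a member held 3 to 75 counts a library.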
